A study of Arabidopsis thaliana with 6 samples.

Results

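The genes described are 31 auxin response genes of Arabidopsis thaliana, 25 of the Aux/IAA family (IAA1 to IAA14, IAA16 to IAA20 and IAA26 to IAA31) and 6 of the GH3 family (GH3.1, GH3.2, GH3.3, GH3.5, GH3.6 and GH3.17), taken by gene ID from the 33323 IDs listed. Auxin is perceived when it joins a TIR1/AFB receptor to a short stretch of an Aux/IAA protein called the degron, after which the Aux/IAA protein is degraded. The ARF transcription factors that it held back are then free to act on genes that include Aux/IAA and GH3 genes themselves, which makes both families long-used readouts of auxin response. GH3 enzymes join auxin or related acids to amino acids and so lower the free hormone.

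The samples were 3 libraries of hid1 (hidden treasure 1) and 3 libraries of wild type (WT), each of poly(A) RNA from seedlings 5 days old grown in the condition that the labels call cR, known from the study as continuous red light. The HID1 locus gives a noncoding RNA, known from the study as a positive factor of photomorphogenesis in red light. The lesion carried by hid1, the number of independent mutant lines and the number of seedlings per library are not given in the labels. A pair of overlapping IDs, looked at because earlier results of these data had shown them, was listed at 0 RPKM in all 3 hid1 libraries. In WT, AT2G35747 had 16.73, 10.83 and 10.1 RPKM and AT2G35750 had 10.73, 11.03 and 10.79 RPKM. The gene names used here pair neither ID with HID1, so whether this is the mutated locus was not settled.

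Each gene had 1 RPKM value per library, a read count divided by gene model length and sequencing depth, as the authors deposited it. Depth was estimated at 17800000 to 26000000 reads per library from the step between low values of RPKM multiplied by exon length. Green-tissue and root markers were both present, with none of 8 green-tissue and none of 10 root markers at 0 in any library. Root markers summed to 214.3, 116.4 and 155.0 RPKM in hid1 replicates 1, 2 and 3, against 127.6, 55.9 and 61.0 RPKM in WT replicates 1, 2 and 3. By this sum WT replicate 1 was the WT library nearest to hid1, and it lay above hid1 replicate 2. PRP3 was the largest part, at 108.62, 41.91 and 74.29 RPKM in hid1 and 52.97, 18.14 and 19.2 RPKM in WT. Among WT libraries, SCR was highest in replicate 2 (14.98 RPKM), PLT2 in replicate 3 (0.34 RPKM) and the other markers in replicate 1. By the limma test described below, 3 of 8 tested root markers (EXPA7, PRP3 and SCR) were called higher in hid1, against 9.41% of all genes tested. The log2 fold change, hid1 minus WT, was positive for 7 of the 8, all but SHR, with a median of 0.985. These 7 had an unadjusted p under 0.05 by limma, and 1 of them, RHD6, was tested only because of its hid1 mean. Green-tissue markers summed to 59631.8 to 75557.0 RPKM in hid1 and 71528.0 to 72922.1 RPKM in WT, and LHCB1.3 and RBCS1A made up most of each sum. Their log2 fold change was negative for 6 of the 8 markers, with a median of -0.176 over all 8. Of the 8, 2 (LHCA1 and PSAD1) were called lower in hid1, against 4.21% of all genes tested. In whole seedlings, fewer cells of a type and less RNA per cell cannot be told apart, which holds for every value below, and the part of these markers in the results was not tested.

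The degron is the part of an Aux/IAA protein that the receptor binds, and whether a member has it decides whether auxin can remove the protein. In the coding sequences of RefSeq TAIR10.1, a GGN codon followed directly by the codon TGG and then by a pair of CCN codons, which together encode the core of the degron, was found once in 22 of the 25 Aux/IAA members. IAA20, IAA30 and IAA31 had none, and are known as members with little or no degron. The lines show 30 coding bases of the reference around the core, 5′ to 3′ with the core in capitals. They cover IAA2, IAA4 and IAA11, which have a core and whose RNA level was called higher in hid1. IAA3, the close relative of IAA4, and IAA7, the member with the highest level, are also shown.
IAA2: caaatcgttGGTTGGCCACCAgtgagatct
IAA3: cagattgttGGATGGCCACCAgttagatct
IAA4: cagattgttGGATGGCCACCAgttagatct
IAA11: caagttgtgGGATGGCCACCAataaggact
IAA7: caagtggtgGGATGGCCACCTgtgaggaac
The stretches lie in coding exons at chr3:8181387-8181416 (minus strand, IAA2), chr1:1129019-1129048 (minus, IAA3), chr5:17550740-17550769 (plus, IAA4), chr4:14143003-14143032 (plus, IAA11) and chr3:8195568-8195597 (plus, IAA7). IAA3 and IAA4 had the same 30 bases here.

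The members spanned a wide range of levels. IAA7 (AT3G23050, AXR2, known from a mutant that resists auxin) was highest in every library, at 219.78, 206.61 and 207.39 RPKM in hid1 and 211.71, 162.65 and 179.84 RPKM in WT. Next was IAA16 (AT3G04730), at 120.74, 109.75 and 107.49 RPKM in hid1 and 106.82, 90.24 and 89.27 RPKM in WT. IAA9 (AT5G65670) had 92.07, 89.18 and 114.02 RPKM in hid1 and 88.92, 93.08 and 83.41 RPKM in WT. The libraries of IAA16 and IAA9 overlapped within each genotype, so their order is not settled. The same holds for IAA9 and IAA8 in WT and for IAA8 and IAA2 in hid1, where IAA2 (77.63 RPKM) was above IAA8 in replicate 2. IAA8 (AT2G22670) had 75.68, 62.28 and 81.55 RPKM in hid1 and 88.75, 88.30 and 83.83 RPKM in WT. IAA7, IAA16, IAA9 and IAA8 together held 61.2% to 65.8% of the summed Aux/IAA RPKM in hid1 libraries and 62.4% to 64.8% in WT libraries. From IAA3 (AT1G04240, 14.7 RPKM in hid1, rank 11) down to IAA1 (AT4G14560, 10.03 RPKM, rank 19) each member overlapped the next in hid1. At the low end IAA31 (AT3G17600) averaged 0.263 ± 0.150 RPKM in hid1 and 0.250 ± 0.165 in WT, and GH3.1 (AT2G14960) averaged 0.597 ± 0.333 in hid1 and 0.610 ± 0.446 in WT (SD, n = 3 each).

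**Figure D1:**
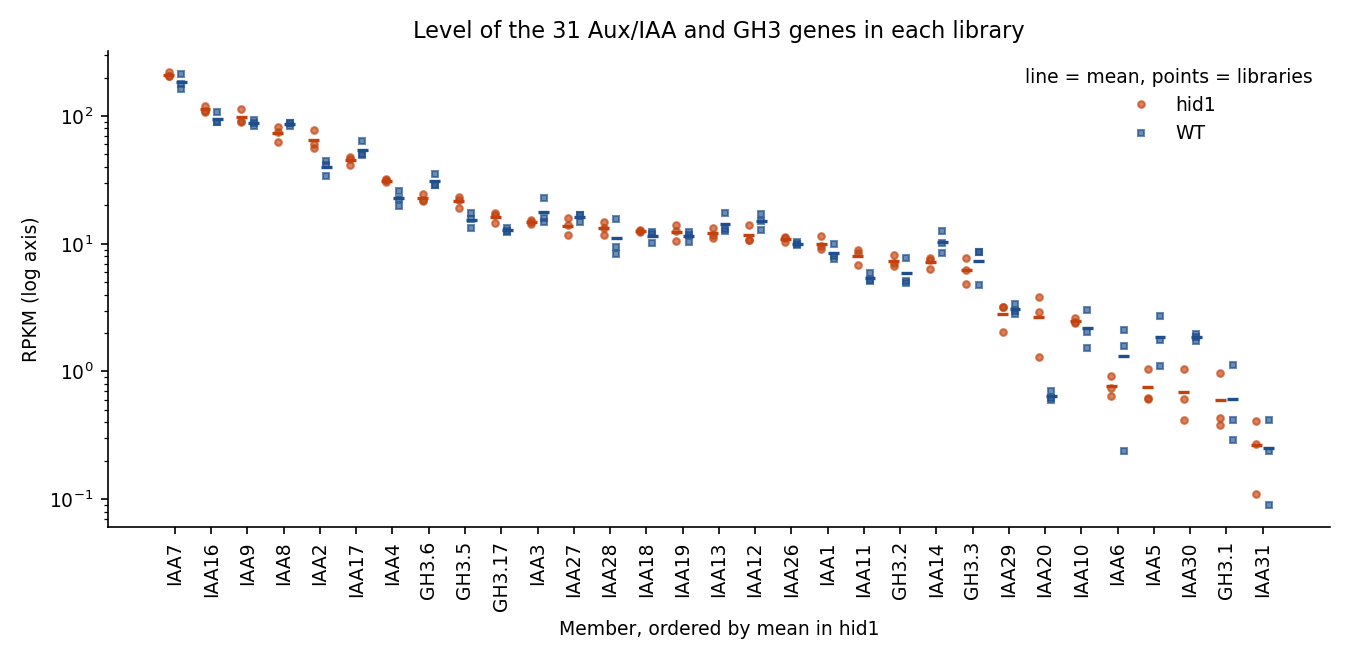
RPKM on a log axis of the 31 members, ordered by their mean in hid1, with points for the 3 libraries of each genotype and lines for the means. The order runs from IAA7 (211.3 RPKM in hid1) to IAA31 (0.263 RPKM), and the separation of the genotypes is widest for IAA20, which ranks 25 in hid1 and 29 in WT.

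The summed level of the Aux/IAA members was 780.9, 764.0 and 776.0 RPKM in hid1 against 777.2, 696.4 and 673.0 RPKM in WT. The genotypes overlapped through WT replicate 1. The GH3 members summed to 74.5, 70.3 and 78.8 RPKM in hid1 and 73.2, 68.4 and 77.7 RPKM in WT, also overlapping. The differences that passed the test were in single members and ran in both directions.

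Of the 31 members, 29 reached a mean of 1 RPKM in either genotype and were tested with limma on log2(RPKM + 1), with p-values adjusted by the Benjamini-Hochberg method over all 18871 genes tested and a call at 0.05 or lower. Of these 29, 4 reached that level in 1 genotype only, IAA20 in hid1 and IAA5, IAA6 and IAA30 in WT, so that their own difference decided that they were tested. A member called higher rose and a member called lower fell in hid1. In hid1, 5 rose (IAA2, IAA4, IAA11, IAA20 and GH3.5), 2 fell (IAA30 and GH3.6) and 22 did not pass. Over all genes tested the percentage called was 13.6%, with 9.41% higher and 4.21% lower, against 24.1% of the tested members. The median log2 fold change, hid1 minus WT, was 0.112 over the tested members and 0.066 over all genes tested. Of all genes called, 1775 were higher and 794 lower, and this split became 1305 higher and 1343 lower under quantile normalization. It was 1340 higher and 1236 lower under median-ratio scaling, and 1427 higher and 1147 lower once a trend with exon length was removed. Among the members, quantile normalization and median-ratio scaling each called 2 higher (IAA2 and IAA20) and 3 lower (IAA30 (AT3G62100), GH3.6 and IAA14). The libraries of the genotypes did not overlap for 14 of the 29, where the percentage over all genes was 34.6%.

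All 7 calls were lost when hid1 replicate 2 was left out. The count was 2 without hid1 replicate 1, 3 without hid1 replicate 3, 9 without WT replicate 1, 3 without WT replicate 2 and 1 without WT replicate 3. The direction of the 7 called members was the same under each of the 13 other settings. Their libraries did not overlap between genotypes, so only quantile normalization, median-ratio scaling and removal of the length trend could have reversed a direction.

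**Figure D2:**
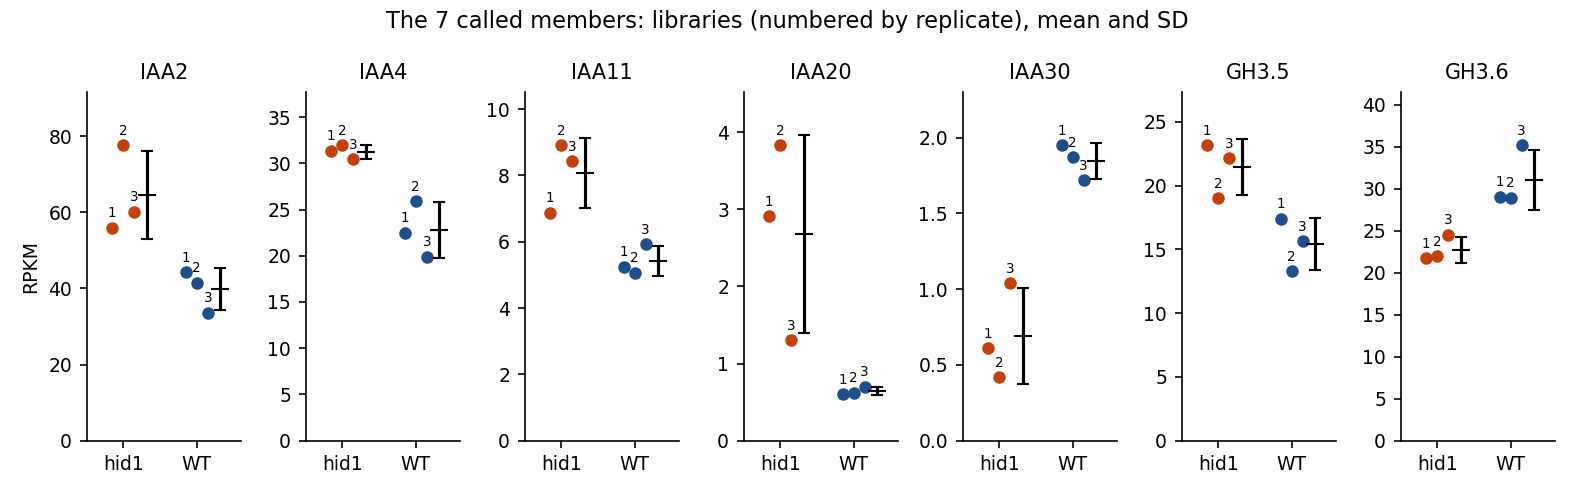
RPKM of the 7 called members in the hid1 and WT libraries, each panel on its own axis from 0, with points numbered by replicate and the mean and SD beside them. In all 7 panels the hid1 libraries lie wholly on one side of the WT libraries, and hid1 replicate 3 is the hid1 library nearest to WT for IAA20 (1.3 RPKM) and IAA30 (1.04 RPKM).

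IAA1 and IAA2 are early auxin-induced repressors and close relatives, 85.6% identical over their aligned coding positions. IAA2 (AT3G23030) had 55.95, 77.63 and 60.13 RPKM in hid1 against 44.21, 41.49 and 33.66 RPKM in WT, with every hid1 library above every WT library. Its mean was 1.62 times as high in hid1 as in WT (log2 fold change 0.68, SE 0.15, limma adjusted p = 0.0136). It lost its call without hid1 replicate 2 or WT replicate 3 (adjusted p up to 0.0543) and kept it in the other 11 settings. IAA1 had 9.07, 11.40 and 9.61 RPKM in hid1 and 7.56, 9.95 and 8.05 RPKM in WT, and did not pass (0.21, SE 0.14, adjusted p = 0.347).

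IAA3 (SHY2) and IAA4 form the next pair, 83.5% identical over aligned positions. IAA3 is known as a repressor that links auxin with light and cytokinin in the young plant. IAA4 (AT5G43700) had 31.37, 31.96 and 30.45 RPKM in hid1 against 22.48, 25.92 and 19.89 RPKM in WT, a spread in hid1 of 0.761 RPKM (SD) about a mean of 31.3. It rose 1.37 times (0.45, SE 0.12, adjusted p = 0.0324) but lost its call in 7 of the 13 other settings, including quantile normalization and median-ratio scaling. IAA3 had 14.75, 15.23 and 14.16 RPKM in hid1 and 15.79, 22.92 and 14.68 RPKM in WT, with overlap, and did not pass (-0.23, SE 0.16, adjusted p = 0.354). The ratio of IAA4 to IAA3 was 2.13, 2.1 and 2.15 in hid1 libraries and 1.42, 1.13 and 1.36 in WT libraries, so the pair was divided more evenly in WT. Their transcripts share an exact run of 42 bases, and how far reads were shared between IAA3 and IAA4 was not tested.

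IAA10 and IAA11 are a more distant pair over aligned positions (68.9% identical). As a share of the longer coding sequence, identity was 52.6% for this pair, 54.3% for IAA1 and IAA2 and 53.6% for IAA3 and IAA4. IAA11 (AT4G28640) had 6.87, 8.91 and 8.42 RPKM in hid1 against 5.24, 5.07 and 5.92 RPKM in WT, again without overlap, and rose 1.49 times (0.50, SE 0.14, adjusted p = 0.0407). This call was lost in 8 of the 13 other settings. IAA10 (AT1G04100) was lower in level, at 2.49 ± 0.125 RPKM in hid1 and 2.21 ± 0.777 RPKM in WT (SD, n = 3 each), and did not pass (adjusted p = 0.644). The ratio of IAA11 to IAA10 was 2.804, 3.728 and 3.202 in hid1 libraries and 1.718, 2.473 and 3.895 in WT libraries, with overlap.

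IAA20 and IAA30 had the highest and the lowest ratio of means, hid1 over WT, among the tested members. On the log2 scale this order depends on the value added, and with 5 added IAA2 (0.63) was above IAA20 (0.43), and GH3.6 (-0.37) was below IAA30 (-0.27). They lack the degron core, are 84.9% identical over aligned coding positions and share an exact run of 52 bases between their transcripts. Members of this kind are known as long-lived repressors whose overexpression disturbs root gravitropism. IAA20 (AT2G46990) had 2.91, 3.83 and 1.3 RPKM in hid1 against 0.60, 0.62 and 0.70 RPKM in WT, or about 51, 85 and 30 estimated reads in hid1 and 12, 12 and 18 in WT. The hid1 libraries varied widely among themselves, yet the lowest lay above all WT libraries. The mean was 4.19 times as high in hid1 as in WT, and the log2 fold change of 1.10 (SE 0.25, adjusted p = 0.0174) understates it because 1 was added to small values. Its call was lost without the filter on low values (adjusted p = 0.0575), which IAA20 had passed through hid1 alone.

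IAA30 had 0.61, 0.42 and 1.04 RPKM in hid1 against 1.95, 1.87 and 1.72 RPKM in WT, or about 11, 9 and 24 estimated reads in hid1 and 39, 36 and 44 in WT. The genotypes did not overlap, and the mean in hid1 was 0.374 times that in WT (-0.77, SE 0.19, adjusted p = 0.0236). The ratio of IAA20 to IAA30 was 4.77, 9.12 and 1.25 in hid1 libraries and 0.308, 0.332 and 0.407 in WT libraries, so IAA20 was the more abundant of the pair in every hid1 library and the less abundant in every WT library. Both calls rest on few reads, and IAA20 lost its call in 3 and IAA30 in 4 of the 13 other settings. Neither read length nor the handling of multiply mapping reads is stated by the labels, and how far reads were shared within the pair was not tested. The third member without a core, IAA31, was at or below 9 estimated reads in each library and was not tested.

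The bases before the gene start are shown for IAA20, the member with the highest ratio of means. The window is 250 bases, 5′ to 3′, from RefSeq TAIR10.1, at chr2:19307464-19307713 on the plus strand. Capitals mark TGTCTC, an auxin response element bound by ARF factors, and CACGTG, the G-box bound by bHLH and bZIP factors of light signalling.
IAA20: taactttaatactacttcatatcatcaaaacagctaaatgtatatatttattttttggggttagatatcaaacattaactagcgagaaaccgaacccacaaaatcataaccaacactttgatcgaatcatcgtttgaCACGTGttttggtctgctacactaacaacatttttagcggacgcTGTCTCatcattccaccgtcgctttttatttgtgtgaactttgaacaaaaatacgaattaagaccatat
The window held 1 CACGTG, which began 113 bases before the start of IAA20, and 1 TGTCTC, which began 69 bases before it. The same window was searched on both strands for 30 of the 31 members, also for TGTCGG, another element bound by ARF factors, and no matches overlapped. Of these 30 members, 9 (30.0%) held TGTCTC, against 10.9% of 27442 protein-coding genes. TGTCGG stood before 6 members (20%) and 4.2% of all genes, and CACGTG before 4 members (13.3%) and 6.5% of all genes. Of the 9 members with TGTCTC, IAA20 and GH3.5 rose and IAA1, IAA5, IAA6, IAA8, IAA19, GH3.2 and GH3.3 did not pass, and IAA19 held 3 copies. The other members that rose, IAA2, IAA4 and IAA11, held none of the motifs searched in this window. The part of these motifs in the changes was not tested.

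**Figure D3:**
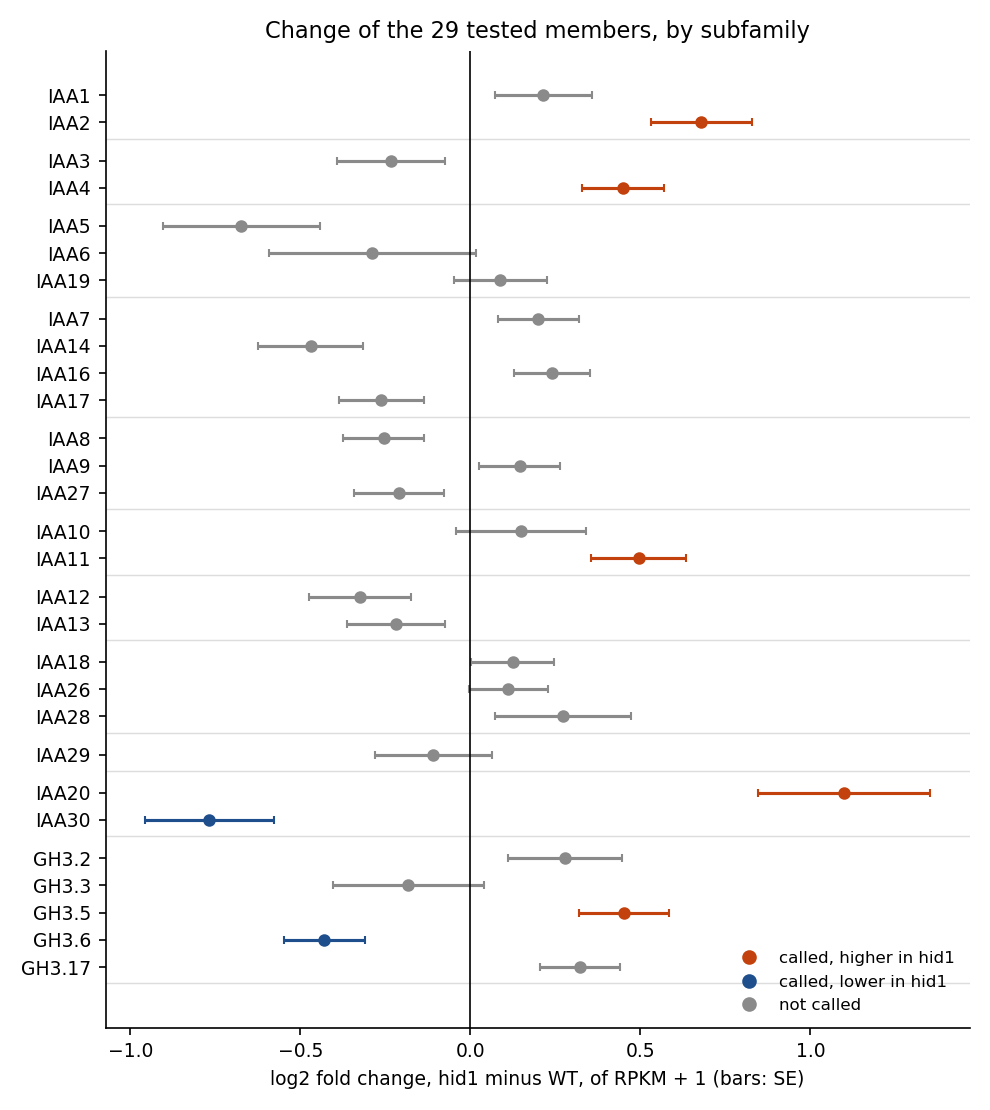
Log2 fold change, hid1 minus WT, of RPKM + 1 for the 29 tested members, grouped by subfamily, with SE as bars and colour for the call. Values run from -0.77 (IAA30) to 1.10 (IAA20), and called genes stand beside uncalled or opposite relatives in the pairs IAA1 and IAA2, IAA3 and IAA4, IAA10 and IAA11, IAA20 and IAA30, and GH3.5 and GH3.6. Differences between the changes of relatives were not tested.

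None of the 4 members of the group of IAA7, IAA14, IAA16 and IAA17 passed by limma, and IAA14 had an unadjusted p of 0.0122. IAA7 stood at 211.3 ± 7.39 RPKM in hid1 and 184.7 ± 24.9 in WT (adjusted p = 0.285), and IAA16 at 112.7 ± 7.09 in hid1 and 95.4 ± 9.86 in WT (adjusted p = 0.177). IAA14 (AT4G14550, SLR, a repressor of lateral root formation) had 7.73, 6.32 and 7.46 RPKM in hid1 against 12.59, 8.49 and 10.13 RPKM in WT, without overlap. Its difference was just outside the threshold (-0.47, SE 0.16, adjusted p = 0.0707) and within it under 4 of the other settings. IAA17 (AT1G04250, AXR3) had 46.39, 47.50 and 41.45 RPKM in hid1 and 63.75, 50.19 and 49.75 RPKM in WT (adjusted p = 0.187). The genotypes did not overlap for IAA17 either.

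IAA5, IAA6 and IAA19 are small early-response repressors, and IAA19 (AT3G15540, MSG2) is known to act with ARF7 in the bending of the hypocotyl. IAA5 (AT1G15580) had 0.62, 1.05 and 0.61 RPKM in hid1 against 1.10, 2.74 and 1.76 RPKM in WT, just short of overlap, and did not pass (-0.67, SE 0.23, adjusted p = 0.0795). IAA6 (AT1G52830) had 0.74, 0.64 and 0.92 RPKM in hid1 and 0.24, 1.58 and 2.12 RPKM in WT, with WT replicate 1 below every hid1 library. Without WT replicate 1, both IAA5 (-0.88, adjusted p = 0.0145) and IAA6 (-0.69, adjusted p = 0.0329) were called lower. IAA19 was at 12.3 ± 1.75 RPKM in hid1 and 11.5 ± 1.07 RPKM in WT (adjusted p = 0.709).

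The remaining Aux/IAA genes did not pass, also not at an unadjusted p of 0.05. IAA8 (73.2 ± 9.88 RPKM in hid1, 87.0 ± 2.72 in WT, adjusted p = 0.178) and IAA9 (98.4 ± 13.6 in hid1, 88.5 ± 4.85 in WT, adjusted p = 0.451) had fold changes of opposite sign. Their relative IAA27 (AT4G29080), named PAP2 as a phytochrome-associated protein, had 13.9 ± 2.01 in hid1 and 16.1 ± 1.15 in WT (adjusted p = 0.323). IAA12 (AT1G04550, BDL, which restrains ARF5 in the embryo) was at 11.8 ± 1.99 in hid1 and 14.99 ± 2.19 in WT (adjusted p = 0.177), and IAA13 (AT2G33310) at 12.1 ± 1.17 in hid1 and 14.3 ± 2.63 in WT (adjusted p = 0.341). IAA18 (AT1G51950) was at 12.6 ± 0.238 in hid1 and 11.5 ± 1.24 in WT (adjusted p = 0.533). IAA26 (AT3G16500), named PAP1 for the same phytochrome binding, stood at 10.9 ± 0.575 in hid1 and 10.02 ± 0.241 in WT (adjusted p = 0.555). IAA29 (AT4G32280), known as a shade-induced target of PIF factors, was at 2.80 ± 0.647 in hid1 and 3.06 ± 0.298 in WT (adjusted p = 0.714). IAA28 (AT5G25890), a repressor of lateral root initiation, had 14.75, 13.27 and 11.66 RPKM in hid1 and 15.60, 9.44 and 8.31 RPKM in WT. WT replicate 1, the WT library with the highest root marker sum, was the highest of all 6 for IAA28. Over all libraries IAA28 did not pass (0.27, SE 0.20, adjusted p = 0.393), and without WT replicate 1 it was called higher (0.52, adjusted p = 0.028). The part of root markers in this value was not tested.

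Aux/IAA genes lie as head-to-head neighbours at 3 places in the genome. IAA2 and IAA7 lie 12510 bases apart on chromosome 3, IAA1 and IAA14 10732 bases apart on chromosome 4, and IAA3 and IAA17 6388 bases apart on chromosome 1 (TAIR10.1). IAA2 was called and its neighbour IAA7 was not (log2 fold changes 0.68 and 0.20), while IAA1 and IAA14 had changes of opposite sign (0.21 and -0.47) that did not pass. IAA3 and IAA17 were both lower in mean without passing (-0.23 and -0.26).

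Among the GH3 members the closest relatives, GH3.5 and GH3.6, changed in opposite directions. GH3.5 (AT4G27260, WES1), which joins amino acids to auxin and to salicylic acid, and GH3.6 (AT5G54510, DFL1), known from a gain-of-function mutant with short hypocotyls in light, are 84.1% identical in coding sequence with a longest shared run of 42 bases. GH3.5 had 23.17, 18.99 and 22.16 RPKM in hid1 against 17.39, 13.28 and 15.63 RPKM in WT, with no overlap. It rose 1.39 times (0.45, SE 0.13, adjusted p = 0.0475), close to the threshold, and lost its call in 9 of the 13 other settings. GH3.6 had 21.72, 21.99 and 24.53 RPKM in hid1 against 29.04, 28.93 and 35.20 RPKM in WT, and fell to 0.732 times the WT mean (-0.43, SE 0.12, adjusted p = 0.0379). The call on GH3.6 was lost in 6 of the 13. The ratio of GH3.5 to GH3.6 was 1.07, 0.864 and 0.903 in hid1 libraries and 0.599, 0.459 and 0.444 in WT libraries, so the pair was nearly even in hid1 and led by GH3.6 in WT. How far reads were shared between GH3.5 and GH3.6 was not tested.

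The same windows are shown for these genes, because the close relatives moved apart, at chr4:13653329-13653578 (plus strand, GH3.5) and chr5:22133689-22133938 (minus strand, GH3.6).
GH3.5: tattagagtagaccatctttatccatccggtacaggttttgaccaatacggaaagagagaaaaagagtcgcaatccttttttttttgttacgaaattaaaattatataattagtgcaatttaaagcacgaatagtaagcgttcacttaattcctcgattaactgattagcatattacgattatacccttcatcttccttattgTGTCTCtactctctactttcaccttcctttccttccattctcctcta
GH3.6: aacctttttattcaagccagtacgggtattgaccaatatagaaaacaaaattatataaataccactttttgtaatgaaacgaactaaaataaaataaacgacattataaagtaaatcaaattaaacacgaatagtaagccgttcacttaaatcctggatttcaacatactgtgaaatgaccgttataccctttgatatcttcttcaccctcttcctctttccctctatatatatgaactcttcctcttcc
GH3.5 held 1 TGTCTC, 47 bases before its start, and GH3.6 held none of the motifs searched in this window.

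GH3.17 (AT1G28130), which conjugates auxin to glutamate, had 16.65, 14.59 and 17.34 RPKM in hid1 against 13.22, 12.26 and 12.69 RPKM in WT. All hid1 libraries lay above all WT libraries, but the difference did not pass (0.32, SE 0.12, adjusted p = 0.0942). GH3.2 (AT4G37390) was at 7.29 ± 0.755 RPKM in hid1 and 5.92 ± 1.52 in WT (adjusted p = 0.298). GH3.3 (AT2G23170) was at 6.25 ± 1.44 in hid1 and 7.34 ± 2.25 in WT (adjusted p = 0.624). GH3.1 was not tested.

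**Figure D4:**
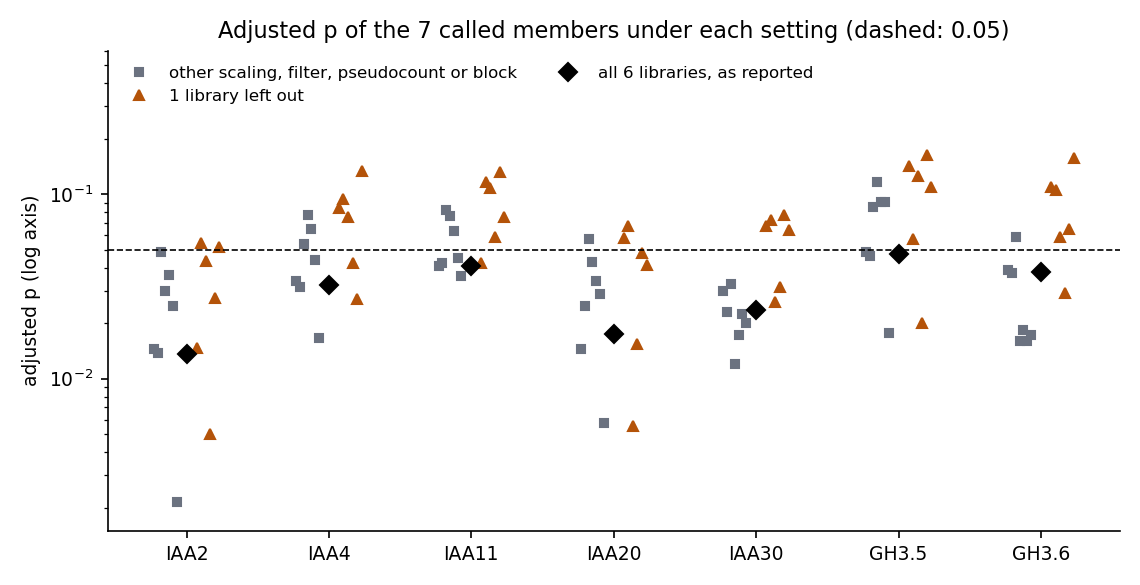
Adjusted p on a log axis for the 7 called members under all settings, with diamonds for all 6 libraries as reported, squares for other scalings, filters, pseudocounts or the block, and triangles for fits without 1 library. Most triangles of IAA4, IAA11, IAA30, GH3.5 and GH3.6 lie above the dashed line at 0.05, and the highest value of IAA2 is 0.0543.

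The rest of the auxin pathway was read from lists of 62 other genes, of which 49 were tested, 5 rose, 2 fell and 42 did not pass, or 14.3% called against 13.6% of all genes. The 7 calls became 5 without hid1 replicate 1, 4 without hid1 replicate 2, 3 without hid1 replicate 3, 9 without WT replicate 1, 2 without WT replicate 2 and 3 without WT replicate 3. Among 6 TIR1/AFB receptors TIR1 (AT3G62980) rose and 5 did not pass. TIR1 had 55.26, 52.93 and 51.24 RPKM in hid1 against 39.37, 37.38 and 39.14 RPKM in WT (0.45, SE 0.10, adjusted p = 0.0143). The genotypes did not overlap, and the call was lost in 3 of the 13 settings (adjusted p up to 0.055). None of 15 ARF factors passed by limma, and 4 had an unadjusted p under 0.05. The ARF genes with the highest mean, ARF2 (AT5G62000, 54.7 ± 6.95 in hid1, 53.4 ± 4.23 in WT, adjusted p = 0.903) and ARF1 (AT1G59750, 23.3 ± 2.31 in hid1, 21.0 ± 1.37 in WT, adjusted p = 0.459), are known as repressors.

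Of 14 auxin synthesis genes, 7 were tested, 1 rose, 1 fell and 5 did not pass. TAA1 (AT1G70560), the aminotransferase of the first step from tryptophan, had 13.55, 13.81 and 14.87 RPKM in hid1 against 24.20, 20.22 and 26.05 RPKM in WT. It fell to 0.599 times the WT mean (-0.69, SE 0.12, adjusted p = 0.005) and kept its call in all 13 other settings. YUC3 (AT1G04610), a monooxygenase of the second step, had 1.83, 3.72 and 1.97 RPKM in hid1 against 1.04, 0.52 and 0.99 RPKM in WT and rose (0.89, SE 0.23, adjusted p = 0.0277), with its call lost in 7 settings. YUC3 passed the filter through hid1 alone, and without the filter its adjusted p was 0.0703. None of the other YUC genes tested passed by limma, and 3 (YUC2, YUC5 and YUC6) had an unadjusted p under 0.05. YUC2 averaged 1.12 ± 0.320 RPKM in hid1 and 1.94 ± 0.344 in WT (adjusted p = 0.111), and YUC6 1.52 ± 0.114 in hid1 and 2.29 ± 0.145 in WT (adjusted p = 0.125). YUC5 averaged 2.14 ± 0.617 in hid1 and 1.26 ± 0.253 in WT (adjusted p = 0.139), and YUC8 2.597 ± 0.281 in hid1 and 2.45 ± 0.287 in WT (adjusted p = 0.827).

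Of 15 transport genes, 13 were tested, 2 rose, 1 fell and 10 did not pass. LAX2 (AT2G21050), an auxin influx carrier, had 10.71, 9.07 and 11.05 RPKM in hid1 against 17.46, 15.30 and 17.47 RPKM in WT and fell (-0.66, SE 0.12, adjusted p = 0.00677) in all settings. ABCB1 (AT2G36910), an efflux transporter, had 31.33, 34.14 and 37.32 RPKM in hid1 against 26.72, 22.61 and 25.55 RPKM in WT and rose (0.44, SE 0.12, adjusted p = 0.0306). PIN2 (AT5G57090), an efflux carrier of the root, had 12.36, 10.24 and 8.74 RPKM in hid1 against 8.91, 3.63 and 4.24 RPKM in WT, with WT replicate 1 above hid1 replicate 3 (0.87, SE 0.25, adjusted p = 0.0466). WT replicate 1 was also the WT library with the highest root marker sum, and the part of root RNA in the PIN2 value was not tested. The call on ABCB1 was lost in 7 and that on PIN2 in 9 of the 13 settings.

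None of the 6 tested genes among 8 other GH3 and auxin-inactivating genes passed by limma, and 2 had an unadjusted p under 0.05. The highest in level were GH3.11 (AT2G46370, JAR1), which conjugates jasmonate (21.5 ± 1.73 in hid1, 18.6 ± 4.13 in WT, adjusted p = 0.372), and GH3.10 (AT4G03400, 9.26 ± 1.73 in hid1, 11.7 ± 0.856 in WT, adjusted p = 0.163). Of the 4 Aux/IAA genes outside the 25, only IAA32 and IAA34 were tested. IAA32 (AT2G01200) had 2.29, 1.75 and 2.53 RPKM in hid1 against 0.92, 0.77 and 0.80 RPKM in WT and rose (0.79, SE 0.17, adjusted p = 0.0138), with its call lost in 2 settings. It too passed the filter through hid1 alone, and its call held without the filter (adjusted p = 0.019). IAA34 (AT1G15050) had 1.01, 1.11 and 1.53 RPKM in hid1 and 0.62, 2.46 and 4.05 RPKM in WT and did not pass (adjusted p = 0.392).

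**Figure D5:**
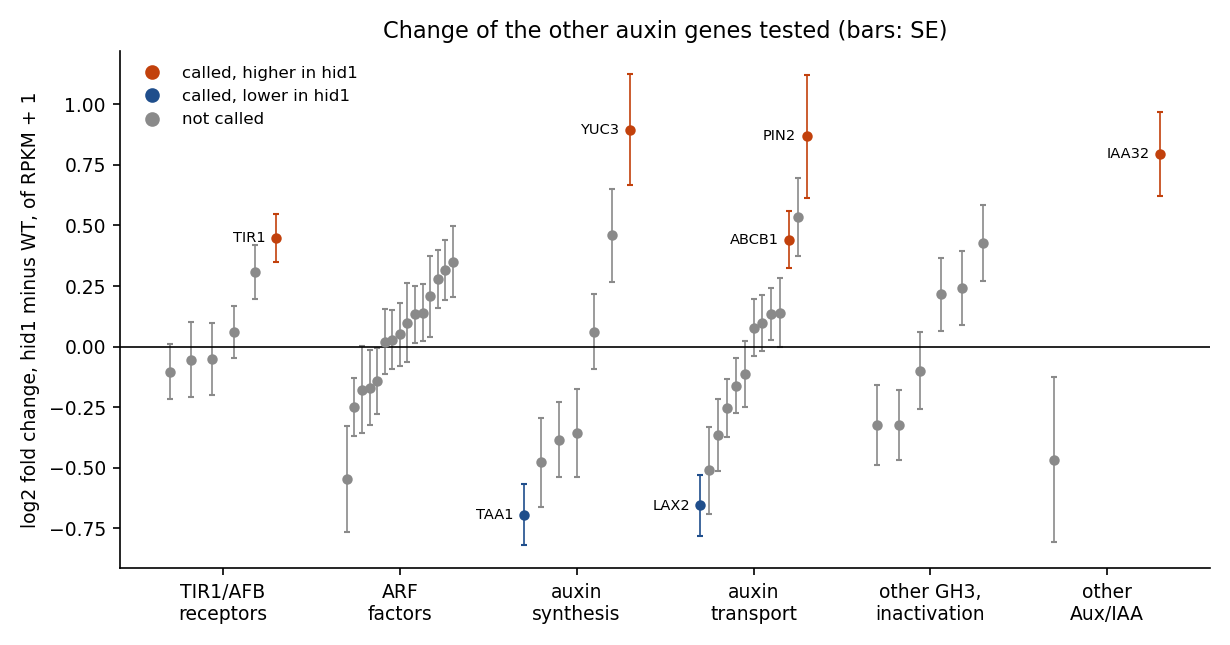
Log2 fold change, hid1 minus WT, of RPKM + 1 for the 49 tested genes of the other auxin lists, with SE as bars and called genes named. The 15 ARF factors hold no called gene, whereas TAA1 and LAX2 lie lowest and YUC3 and PIN2 highest among those called.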

How the data were processed

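Poly(A) RNA of 3 hid1 and 3 WT libraries of seedlings was sequenced after TruSeq library preparation, per the labels' protocols. Per the submitters' processing notes, reads were mapped to TAIR10 with TopHat2 2.0.9, and Cuffdiff 2.0.0 was used for differential genes. Per the file headers, the authors deposited 1 column of RPKM per library. Which reads the RPKM was scaled to, the read counter, annotation, strand and handling of multiply mapping reads are not given in the labels or headers. Each could shift the values of closely related genes.

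A count model was not applied to RPKM. Values were tested as log2(RPKM + 1) with limma 3.58.1 in R 4.3.3 (lmFit, eBayes with trend, a model of genotype alone). Genes entered where hid1 or WT averaged 1 RPKM or more, with Benjamini-Hochberg adjustment over all of them. The test was first run on simulated data, with noise drawn for each gene on its own and no shift of whole libraries. That run therefore could not show dependence on scaling or on single libraries. Whether the biological replicates named by the submitters came from separate cultures is not stated, so p-values measure the spread between these libraries.

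All members are named, with each library's value for those called and the 10 of highest mean. From each other list the called genes are named, or the 2 of highest mean. The members and lists were chosen with earlier results of these data known. Alternatives were a pseudocount of 0.1 or of 5, no filter, quantile normalization, median-ratio scaling, removal of a loess trend with exon length (span 0.3), a replicate block, and 6 fits that each lacked 1 library. Exon lengths, positions and sequences are from RefSeq TAIR10.1, matched by gene ID for 32835 of 33323 IDs. The upstream window of 1 member is not reported here. The TAIR10.1 chromosome sequences were not compared with those the authors used. Estimated reads rest on these lengths. Percent identity was taken from global alignments of the longest annotated coding sequences with Biopython 1.88. Tables were handled with pandas 2.3.3 and drawn with matplotlib 3.10.9.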

Additional observations from a re-analysis of the deposited data

How the results depend on the processing

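Of 29 tested members, the 7 called ones kept their direction under all 13 alternatives. Only quantile normalization, median-ratio scaling and removal of the length trend could have reversed it, as their libraries did not overlap between genotypes. Of the uncalled members, 4 (IAA5, IAA6, IAA14 and IAA28) were called in at least 1 alternative, and 3 changed sign, each near 0: IAA10 (-0.0107 to 0.332 with 1 library left out, negative without WT replicate 3), IAA19 (-0.0139 with quantile normalization) and IAA29 (-0.185 to 0.0411, positive without hid1 replicate 2). With 1 library left out, the called members numbered 0 to 9 (0 to 5 higher, 0 to 4 lower), the called genes of the other auxin lists 2 to 9 (0 to 6 higher, 2 to 3 lower) and all called genes 1430 to 3260 (1021 to 2289 higher, 395 to 971 lower). All called genes numbered 1517 without hid1 replicate 2, 1614 without hid1 replicate 3, 1430 without WT replicate 2 and 1562 without WT replicate 3, and the highest totals came without WT replicate 1. Without a filter on low values, which raised the genes tested to 25794, 492 genes were lower and 2 members were called, IAA2 (1 higher) and IAA30 (1 lower). Quantile normalization gave 1343 lower genes, 2 members higher and 2 list genes higher. Median-ratio scaling gave 1236 lower genes, 2 members higher and 3 list genes higher, and removal of the length trend 2 list genes higher. The cause of these shifts was not tested.

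Same-numbered hid1 and WT libraries had correlations of 0.315, 0.061 and 0.105 in their deviations from the genotype means, and WT replicate 2 correlated best with hid1 replicate 3 (0.255), so the numbers were not taken to pair the libraries. With the replicate block, 3635 genes were called, 1251 of them lower, and 9 members, 4 of them lower (IAA5 and IAA14 added). Depth limits IAA5, IAA6, IAA10, IAA20 and IAA30 most among the tested members, which had under 100 estimated reads per library.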
